A study of Mus musculus with 6 samples.

Results

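The genes described here are 9 hepatic genes of glucose handling, chosen by symbol from the count table: Pcx, Pck1 and Fbp1 of gluconeogenesis, the glucose carrier Slc2a2, Gckr, a regulator of hepatic glucose phosphorylation, the glycolytic enzyme Pklr, Gys2 and Pygl of glycogen metabolism, and Irs2 of insulin signalling. All 9 were found among the 40803 genes of the table and all 9 passed the filter on low counts. The livers came from male C57BL6 mice on normal feed with free access to food, about 6 weeks old when rAAV8 was injected into the tail vein and examined 4 weeks later. The vector, an adeno-associated virus of serotype 8, reaches mainly hepatocytes; in rAAV8-Hnf1aos1 it carried a short hairpin RNA against the lncRNA Hnf1aos1 and in rAAV8-Scramble a scrambled hairpin, so both groups received virus, hairpin and an EGFP reporter. The hairpin was driven by the U6 promoter, which is active in all cell types that take up the vector. Each group had 3 libraries of 1 mouse each.

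The liver stores glucose as glycogen after a meal and releases it between meals. In gluconeogenesis, pyruvate carboxylase (Pcx), cytosolic phosphoenolpyruvate carboxykinase (Pck1) and fructose-1,6-bisphosphatase (Fbp1) carry pyruvate past the irreversible steps of glycolysis, and glucose-6-phosphatase (G6pc) then frees glucose, which can leave or enter the hepatocyte through Slc2a2 (GLUT2). On the way in, glucose is phosphorylated, a step that the Gckr protein restrains when little glucose is present. Insulin, acting through the receptor and its docking proteins Irs1 and Irs2, lowers Pck1, G6pc and Irs2 transcription.

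Gene counts per library were 14704746 to 19462398 (medians 15480165 in rAAV8-Scramble and 18766947 in rAAV8-Hnf1aos1), and the 9 genes took 0.294 to 0.427% of all TPM. The targeted lncRNA had 512, 491 and 620.3 normalized counts in rAAV8-Scramble replicates 1, 2 and 3, and 278, 258 and 433 in rAAV8-Hnf1aos1 replicates 1, 2 and 3. Its log2 difference was −0.74 ± 0.195 (SE, adjusted p 0.0625); it was not called by edgeR and was called by DESeq2 (adjusted p = 0.00341). rAAV8-Hnf1aos1 replicate 3 kept the most Hnf1aos1 of the knockdown libraries, and without it the gene was called at −1.01 (adjusted p = 0.000261). A gene on the opposite strand and another on the same strand overlap its exons. The strand setting of the counting is not given in the sources used here, so reads from both strands may be mixed. How reads shared with the same-strand gene were assigned is not given either. Hepatocyte genes dominated: 7 of 8 markers were found by symbol, with a summed level of 75380.0 to 79940.0 TPM in rAAV8-Scramble and 70220.0 to 85230.0 TPM in rAAV8-Hnf1aos1.

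Promoter sequence is shown for 4 of the 9 genes, from 250 bases before to 50 bases after the transcript start. These are Gckr and Slc2a2, whose groups did not overlap, and Pck1 and Irs2. The log2 differences of Pck1 and Irs2 had the largest standard errors of the 9 (0.206 and 0.296). Sequences are RefSeq's on GRCm38.p6, 5′ to 3′ on the gene's strand, with capitals where a searched motif matches on either strand; 8 of the 9 genes had an entry, and Gys2 had none.
Gckr, chr5:31297313-31297612, + strand: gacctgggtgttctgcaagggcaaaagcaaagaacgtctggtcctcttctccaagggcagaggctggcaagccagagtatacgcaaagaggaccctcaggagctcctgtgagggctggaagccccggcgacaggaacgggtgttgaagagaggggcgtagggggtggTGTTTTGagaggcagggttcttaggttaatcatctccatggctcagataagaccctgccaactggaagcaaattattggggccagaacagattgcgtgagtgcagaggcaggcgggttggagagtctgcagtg
Slc2a2, chr3:28697653-28697952, + strand: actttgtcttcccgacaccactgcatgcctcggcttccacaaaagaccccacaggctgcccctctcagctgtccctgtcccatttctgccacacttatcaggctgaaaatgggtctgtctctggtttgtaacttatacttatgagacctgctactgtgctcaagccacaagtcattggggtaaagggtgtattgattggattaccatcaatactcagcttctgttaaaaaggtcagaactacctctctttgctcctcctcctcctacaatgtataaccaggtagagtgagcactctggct
Pck1, chr2:173152823-173153122, + strand: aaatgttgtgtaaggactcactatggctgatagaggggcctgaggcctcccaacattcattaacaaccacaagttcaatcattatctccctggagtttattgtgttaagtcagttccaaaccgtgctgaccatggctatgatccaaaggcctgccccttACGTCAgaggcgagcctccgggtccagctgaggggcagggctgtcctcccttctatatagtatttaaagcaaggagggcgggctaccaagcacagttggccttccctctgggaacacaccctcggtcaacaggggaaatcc
Irs2, chr8:11008880-11009179, - strand: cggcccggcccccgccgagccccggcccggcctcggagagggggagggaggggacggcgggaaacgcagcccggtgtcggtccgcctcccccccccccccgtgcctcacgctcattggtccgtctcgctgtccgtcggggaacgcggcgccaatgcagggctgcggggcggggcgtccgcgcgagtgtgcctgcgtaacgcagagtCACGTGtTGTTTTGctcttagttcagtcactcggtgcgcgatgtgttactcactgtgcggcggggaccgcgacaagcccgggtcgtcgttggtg
The motifs were searched on both strands, and each share is of the 32851 promoters of this length. TGACGT, the core of the cAMP response element, occurs in 7.51% of them. The E-box searched, CACGTG, occurs in 7.15%. The forkhead motif was TGTTTAC, found in 3.65%. The insulin response sequence CAAAACA occurs in 6.28% and the TATA box TATAAA in 13.6%. The Gckr window has a CAAAACA match on the opposite strand that begins 83 bases upstream of the start. Pck1 is a gene known for its cAMP response element, and TGACGT lies on the opposite strand at 91 bases upstream. Irs2 has an E-box at 44 bases and CAAAACA on the opposite strand at 37 bases, and the Slc2a2 window has 0 matches. RefSeq and GENCODE M21, which gave the gene spans printed here, place some starts apart: the RefSeq start lies 471 bases upstream of the GENCODE start of Irs2, 120 and 25 bases downstream of those of Gckr and Pck1 and at the same base for Slc2a2. A match describes letters and no binding was measured.

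Levels of the 9 genes per transcript length are given in TPM as the authors deposited them. Pck1 was the highest, with 1741 ± 231 TPM (SD, n = 3) in rAAV8-Scramble and 1503 ± 389.7 TPM in rAAV8-Hnf1aos1, followed by Fbp1 with 916 ± 41.0 and 784 ± 72.5 TPM. Glycogen phosphorylase Pygl came next with 326 ± 11.2 and 333 ± 23.0 TPM. Pklr, Slc2a2 and Pcx came after it and their order depended on the group, with 244 ± 49.2, 239 ± 3.87 and 214 ± 28.7 TPM in rAAV8-Scramble and 205 ± 39.6, 176 ± 32.0 and 205 ± 16.6 TPM in rAAV8-Hnf1aos1. Library ranges of Pklr overlapped those of Slc2a2 and of Pcx in both groups. Below them stood Gckr with 133 ± 12.3 and 99.3 ± 5.84 TPM and Gys2 with 91.2 ± 4.71 and 73.7 ± 10.5 TPM, and Irs2 was the lowest with 20.8 ± 7.50 and 19.0 ± 3.63 TPM.

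**Figure D1:**
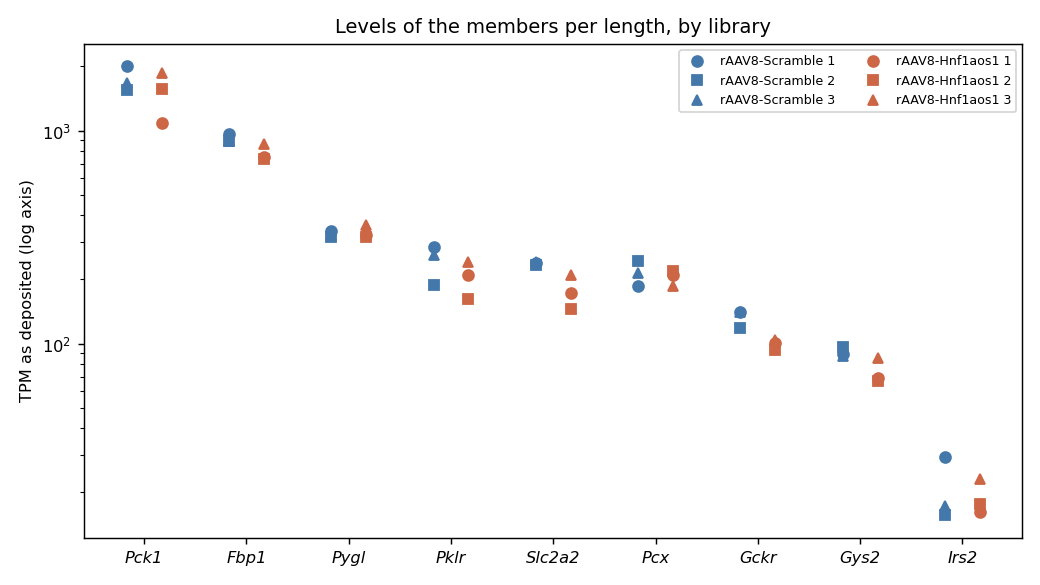
TPM as deposited (log axis) of the 9 genes in each of the 6 libraries, with blue for rAAV8-Scramble, orange for rAAV8-Hnf1aos1 and a shape for each replicate number. Pck1 and Fbp1 stand above the other genes and Irs2 below them in every library, while Pklr, Slc2a2 and Pcx share a range.

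The comparison of rAAV8-Hnf1aos1 with rAAV8-Scramble asks whether these genes differed in level when Hnf1aos1 was knocked down. With the level in rAAV8-Hnf1aos1 relative to rAAV8-Scramble given as a log2 difference, 0 of the 9 genes were called higher and 0 lower at an adjusted p under 0.05 by edgeR's quasi-likelihood test, where 6.32% of 16327 genes passed in either direction, 3.09% upward and 3.23% downward. Of the 9, Gckr and Slc2a2 (2 genes) had an unadjusted p under 0.05, against 23.4% of all genes, and DESeq2 called 1, Gckr, against 7.11%. Log2 fold changes (rAAV8-Hnf1aos1 over rAAV8-Scramble) ran from −0.36 for Slc2a2 to 0.11 for Pygl, so none reached 1 in either direction. In 7 of the 9 the log2 fold change was below 0, as in 50.1% of all genes, with a median of −0.15 against −0.00040 over all genes; with library sizes from the spike-ins it was below 0 in 3 of the 9, and the medians were 0.056 and 0.20. The groups did not overlap in 2 of the 9, both lower in rAAV8-Hnf1aos1, where 13.7% of all genes were lower and 15.2% higher without overlap. In whole liver, fewer cells of a type and less RNA per cell cannot be told apart.

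**Figure D2:**
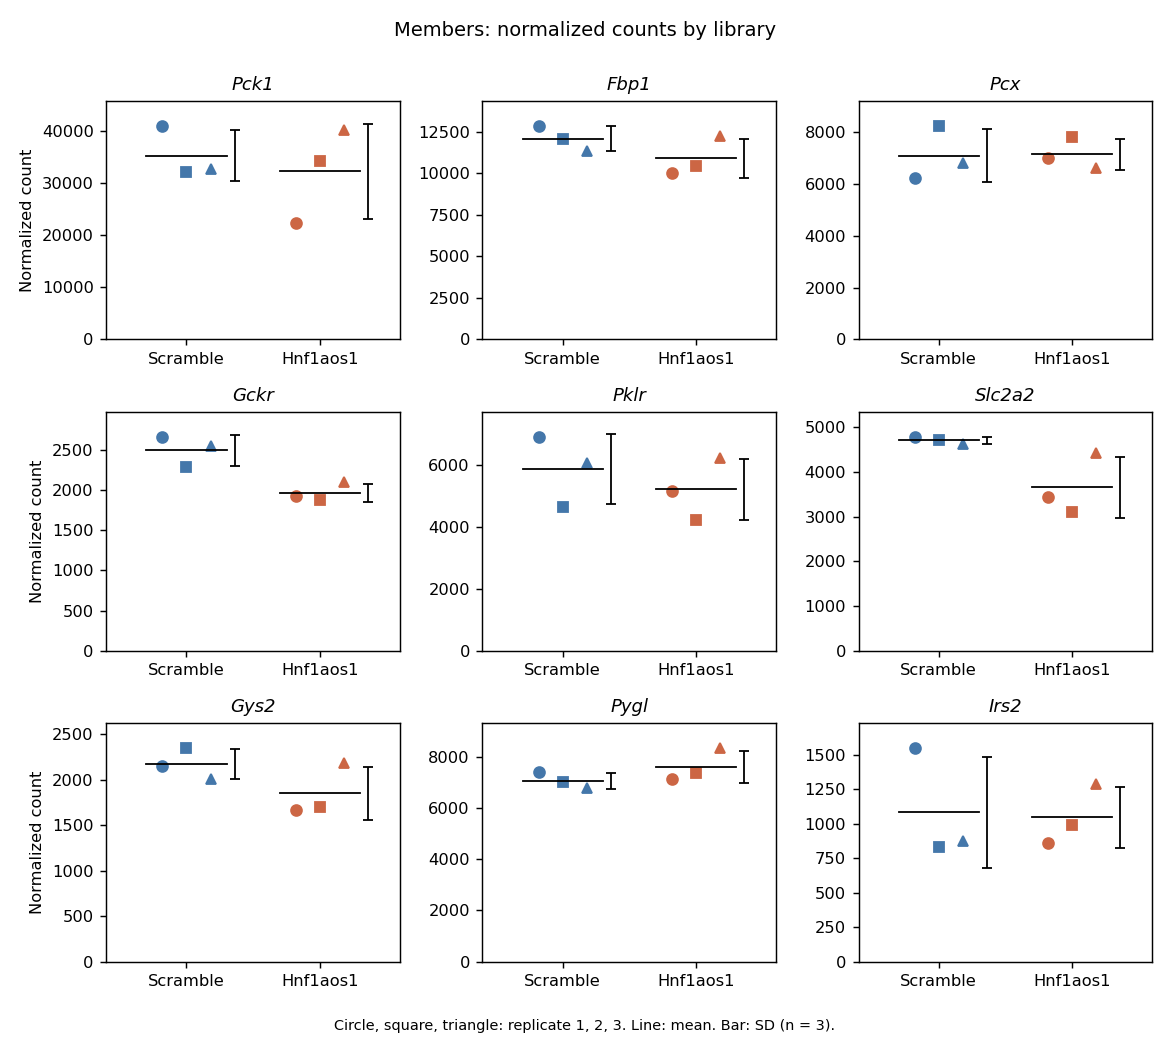
Normalized counts (axes from 0) of the 9 genes, 1 panel each, with 3 libraries per group, the mean as a line and the SD as a bar. The groups are apart for Gckr and Slc2a2 and overlap for the other 7 genes.

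Pcx, Pck1 and Fbp1 each overlapped between the groups. Pcx, the mitochondrial enzyme that makes oxaloacetate from pyruvate (chromosome 19, 4510472 to 4621752, + strand of GRCm38), had 6225, 8232 and 6828 normalized counts in rAAV8-Scramble replicates 1, 2 and 3 and 7004, 7810.3 and 6601 in rAAV8-Hnf1aos1. Both the highest and the lowest of these were rAAV8-Scramble libraries. The log2 difference was 0.0088 ± 0.120 (SE, adjusted p 0.973), or 101% of the rAAV8-Scramble level (95% interval 83.8% to 121%).

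For Pck1, which turns oxaloacetate into phosphoenolpyruvate and is strongly set by feeding (chromosome 2, 173153048 to 173159273, + strand), normalized counts were 40904, 32184 and 32656 in rAAV8-Scramble and 22258, 34276 and 40179.7 in rAAV8-Hnf1aos1. Replicate 1 was the highest rAAV8-Scramble library and replicate 1 the lowest rAAV8-Hnf1aos1 library, while rAAV8-Hnf1aos1 replicate 3 was close to the top. Means were 35248 ± 4904 (SD, n = 3) in rAAV8-Scramble and 32238 ± 9133 (SD, n = 3) in rAAV8-Hnf1aos1, with a log2 difference of −0.13 ± 0.206 (SE, adjusted p 0.757), or 91.5% of the rAAV8-Scramble level (95% interval 66.1% to 126%). Without rAAV8-Scramble replicate 1 it was −0.0053, and without rAAV8-Hnf1aos1 replicate 1 the log2 fold change was 0.071, so its sign rested on that library.

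Fbp1, the bisphosphatase that opposes phosphofructokinase (chromosome 13, 62864753 to 62888282, - strand), had 12843, 12088 and 11340.2 normalized counts in rAAV8-Scramble and 10033, 10469 and 12249 in rAAV8-Hnf1aos1. rAAV8-Hnf1aos1 replicates 1 and 2 lay below all rAAV8-Scramble libraries and replicate 3 among them. Its log2 difference was −0.15 ± 0.109 (SE, adjusted p 0.448), or 90.3% of the rAAV8-Scramble level (95% interval 76.5% to 107%).

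Slc2a2 and Gckr were the 2 of the 9 genes without overlap in these normalized counts, both lower, where 13.7% of all genes were lower without overlap. Slc2a2 encodes the low-affinity glucose carrier GLUT2 (chromosome 3, 28697903 to 28731359, + strand) and had 4778, 4724 and 4619 normalized counts in rAAV8-Scramble replicates 1, 2 and 3 and 3445, 3102 and 4422 in rAAV8-Hnf1aos1. The coefficient of variation was 1.72% in rAAV8-Scramble and 18.7% in rAAV8-Hnf1aos1, and rAAV8-Hnf1aos1 replicate 3 was just below the rAAV8-Scramble range. Means were 4707 ± 80.8 (SD, n = 3) in rAAV8-Scramble and 3656 ± 685 (SD, n = 3) in rAAV8-Hnf1aos1, a log2 difference of −0.36 ± 0.124 (SE, adjusted p 0.104), or 77.7% of the rAAV8-Scramble level (95% interval 64.3% to 93.8%). Permuting the 6 libraries (exact, two-sided) gave p = 0.1, the least that 3 against 3 can give. Slc2a2 was not called, but without rAAV8-Hnf1aos1 replicate 3 it was, with a log2 fold change of −0.52 and an adjusted p of 0.00695. In the 5 fits without another library the adjusted p was 0.194 to 0.327, and the log2 fold change was −0.26 without rAAV8-Hnf1aos1 replicate 2. With library sizes from the spike-ins the log2 fold change of Slc2a2 was −0.161 (adjusted p 0.424).

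Gckr, whose protein restrains hepatic glucose phosphorylation (chromosome 5, 31297443 to 31327314, + strand), had 2662, 2287 and 2558 normalized counts in rAAV8-Scramble and 1926, 1885 and 2099 in rAAV8-Hnf1aos1. Every rAAV8-Hnf1aos1 library was below every rAAV8-Scramble library (p = 0.1 in the exact permutation test, again its minimum). From 2503 ± 194 (SD, n = 3) to 1970.4 ± 114 (SD, n = 3) the log2 difference was −0.34 ± 0.0935 (SE, adjusted p 0.0517), or 78.7% of the rAAV8-Scramble level (95% interval 68.3% to 90.8%). This adjusted p lay just above the threshold, and it was 0.0403 by DESeq2, which called the gene. Over the other scalings, filters and tests it ran from 0.0201 to 0.331, and it was 0.0303 without rAAV8-Hnf1aos1 replicate 3 but 0.0559 to 0.194 in the 5 fits without another library.

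By the root mean square difference of log2 CPM, centred on the mean of the 6 libraries, the genes closest to Gckr were Cspp1 (0.0178), Luc7l (0.0348) and Ubqln4 (0.0359), and those closest to Slc2a2 were Tcea3 (0.0300), Tfcp2l1 (0.0330) and Ntng2 (0.0388). None of these 6 was called by edgeR, with adjusted p from 0.0583 to 0.339. Among the 9 genes themselves, Fbp1 and Gys2 were the most alike (0.0849), then Slc2a2 and Gys2 (0.107) and Gckr and Slc2a2 (0.125). These are descriptions over the same 6 libraries.

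Pklr makes the liver and red cell pyruvate kinase, the last step of glycolysis (chromosome 3, 89136142 to 89146784, + strand). Its normalized counts were 6905, 4654 and 6083 in rAAV8-Scramble and 5163, 4239 and 6241 in rAAV8-Hnf1aos1, and replicate 2 was the lowest library of each group. The log2 difference was −0.17 ± 0.172 (SE, adjusted p 0.586), or 88.7% of the rAAV8-Scramble level (95% interval 67.7% to 116%). It was −0.039 without rAAV8-Scramble replicate 1, −0.042 without rAAV8-Hnf1aos1 replicate 2, −0.32 without rAAV8-Scramble replicate 2 and −0.32 without rAAV8-Hnf1aos1 replicate 3. Exons of Hcn3 on the opposite strand overlap it in GENCODE M21; Hcn3 had at most 201 counts in a library, against at least 4240 for Pklr.

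In glycogen metabolism, Gys2, the liver glycogen synthase (chromosome 6, 142422613 to 142473109, - strand), had 2153, 2343 and 2013 normalized counts in rAAV8-Scramble and 1663, 1704 and 2181 in rAAV8-Hnf1aos1. rAAV8-Hnf1aos1 replicates 1 and 2 were the lowest of the 6 libraries and replicate 3 lay within the rAAV8-Scramble range. Its log2 difference was −0.23 ± 0.116 (SE, adjusted p 0.259), or 85.2% of the rAAV8-Scramble level (95% interval 71.5% to 102%), and without rAAV8-Hnf1aos1 replicate 3 it was called at −0.36 with an adjusted p of 0.0404. Pygl, the liver phosphorylase that breaks glycogen down (chromosome 12, 70190811 to 70231488, - strand), had 7409, 6999.6 and 6792 normalized counts in rAAV8-Scramble and 7142, 7363 and 8322 in rAAV8-Hnf1aos1. These ranges overlapped, and rAAV8-Hnf1aos1 replicate 3 was the highest library. The log2 fold change of Pygl was 0.11 ± 0.0992 (SE, adjusted p 0.555), or 108% of the rAAV8-Scramble level (95% interval 92.6% to 125%), and it was 0.04 without rAAV8-Hnf1aos1 replicate 3. Within each library the ratio of Gys2 to Pygl in TPM was 0.265, 0.305 and 0.270 in rAAV8-Scramble and 0.212, 0.211 and 0.239 in rAAV8-Hnf1aos1, lower in all 3 rAAV8-Hnf1aos1 libraries, a ratio picked after its values were seen and not tested.

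Irs2, the docking protein that links the insulin receptor to phosphatidylinositol 3-kinase (chromosome 8, 10984681 to 11008458, - strand), had 1548, 831 and 874 normalized counts in rAAV8-Scramble and 860.2, 991 and 1291 in rAAV8-Hnf1aos1. rAAV8-Scramble replicate 1 was the highest library, and the other 5 shared a range below it. The log2 difference was −0.051 ± 0.296 (SE, adjusted p 0.939), or 96.5% of the rAAV8-Scramble level (95% interval 57.7% to 161%), the widest interval of the 9. Without rAAV8-Scramble replicate 1 it was 0.30 and without rAAV8-Hnf1aos1 replicate 1 it was 0.065, so its sign rested on single libraries. It was −0.23 without rAAV8-Hnf1aos1 replicate 3. An antisense RNA whose exons overlap Irs2 in GENCODE M21, 9530052E02Rik, had 0 to 4 counts.

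The spread within a group was shared by many of the 9 genes. rAAV8-Hnf1aos1 replicate 3 held the highest of the rAAV8-Hnf1aos1 values in 8 of the 9, all but Pcx, whereas over all genes tested it was the highest of the rAAV8-Hnf1aos1 libraries in 34.3%. rAAV8-Scramble replicate 1 was the highest of its group in 7 of the 9, all but Pcx and Gys2, against 33.1% of all genes. Pck1 and Irs2, which insulin lowers, and Igfbp1, an insulin-regulated gene, were highest of their group in rAAV8-Scramble replicate 1 and rAAV8-Hnf1aos1 replicate 3. G6pc, which insulin also lowers, was highest in the same libraries, though in rAAV8-Hnf1aos1 only narrowly (7877 normalized counts against 7850.3 in replicate 1). Gckr, Slc2a2, Fbp1, Pklr and Pygl were highest in these libraries as well. The cause of this pattern was not tested. Pdk4 was instead highest in rAAV8-Scramble replicate 2 (685 normalized counts) and rAAV8-Hnf1aos1 replicate 1 (193). Ppargc1a was highest in rAAV8-Scramble replicate 2 (283) and rAAV8-Hnf1aos1 replicate 3 (238). The median log2 fold change of the 9 genes was −0.15, −0.074 without rAAV8-Scramble replicate 1 and −0.32 without rAAV8-Hnf1aos1 replicate 3.

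**Figure D3:**
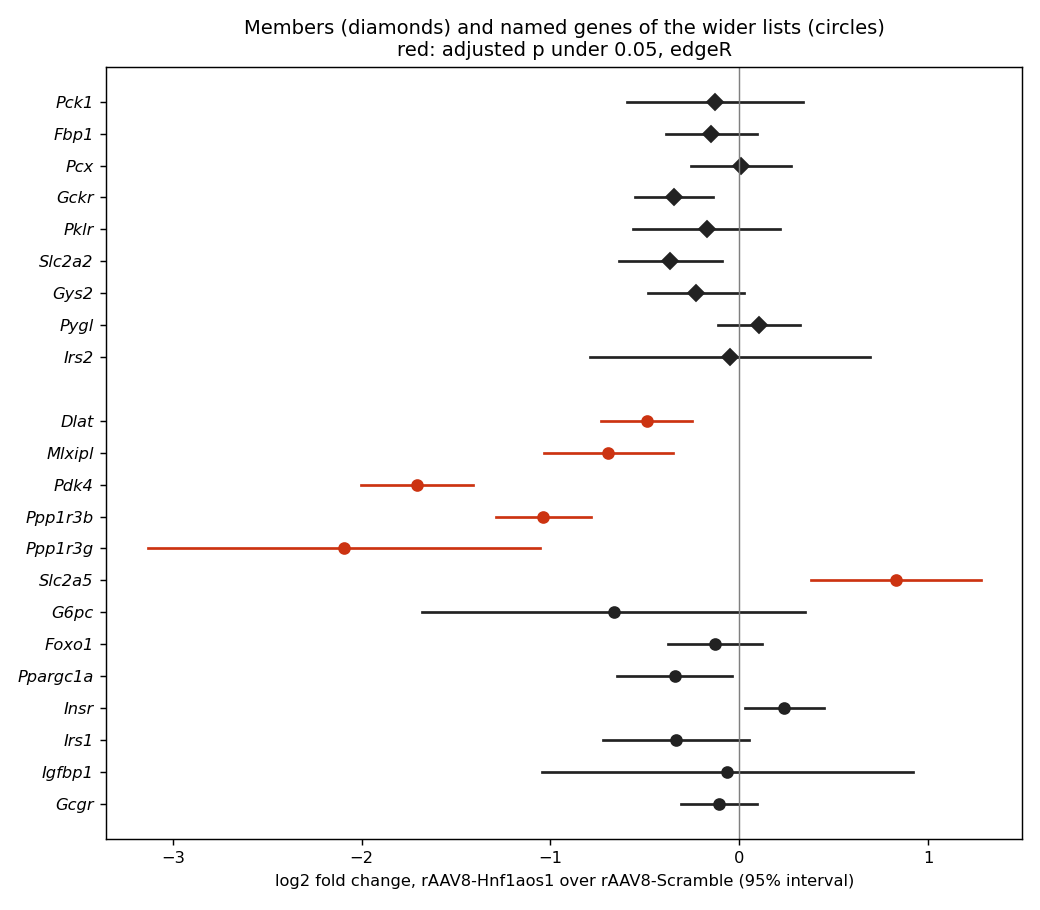
Log2 fold change (rAAV8-Hnf1aos1 over rAAV8-Scramble) with its 95% interval for the 9 genes (diamonds) and for 13 named genes of the wider lists (circles), with red for an adjusted p under 0.05. The 9 diamonds lie between −0.36 and 0.11, and red is seen only among the circles, where 5 are below 0 and Slc2a5 is above.

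Other genes of these pathways were taken from lists written by hand from general knowledge, with 101 genes besides the 9. Of them 98 were tested and 6 were called, 5 lower and 1 higher in rAAV8-Hnf1aos1, which is 6.12% against 6.32% of all genes. Their median log2 fold change was −0.072. The 5 lower genes were Pdk4, Ppp1r3b, Ppp1r3g, Mlxipl and Dlat, and the higher gene was Slc2a5. All 6 were without overlap between the groups, as were 22.4% of the 98 and 28.9% of all genes.

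**Figure D4:**
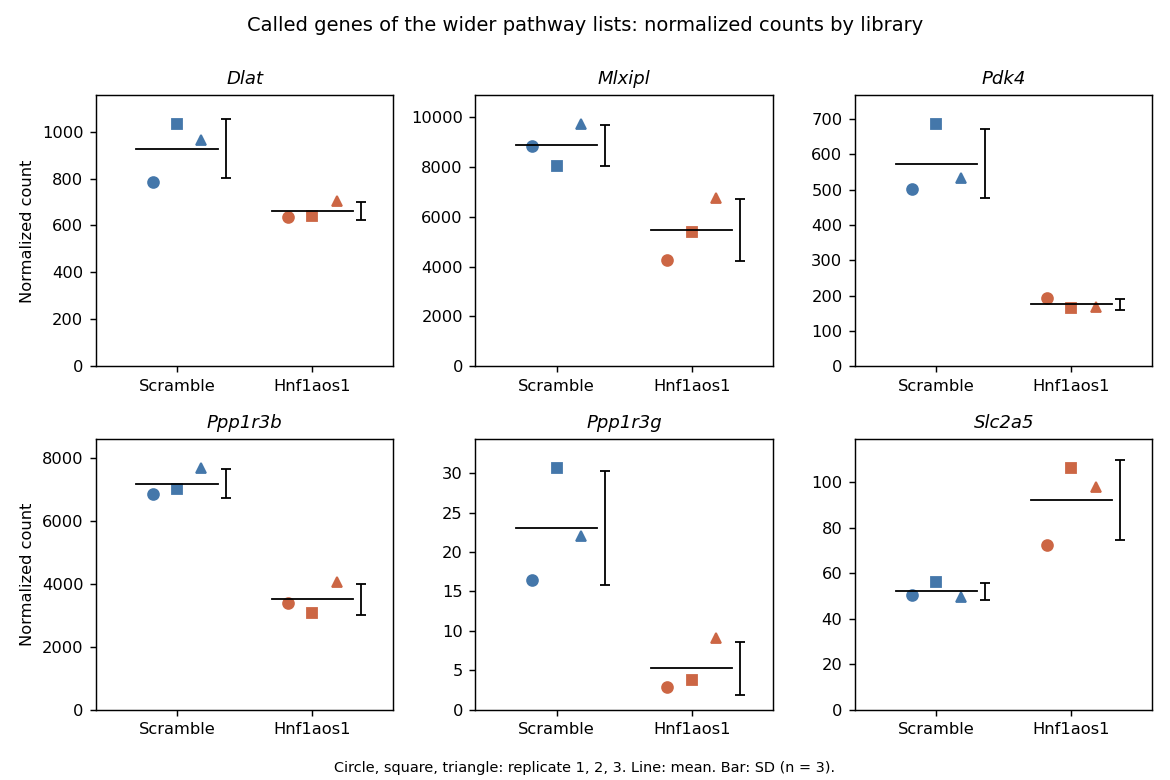
Normalized counts (axes from 0) of the 6 called genes of the wider lists, 3 libraries per group with mean and SD. The groups are apart in each panel, and Pdk4 and Ppp1r3b show the clearest gap relative to their spread.

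In glycolysis and fructolysis, 1 of the 20 other genes tested was called, and it was lower, where 3.23% of all genes were called lower. Mlxipl, which encodes the glucose-responsive transcription factor ChREBP, a known activator of Pklr, had 8827, 8059 and 9712 normalized counts in rAAV8-Scramble and 4278, 5409.9 and 6761 in rAAV8-Hnf1aos1, with a log2 difference of −0.69 ± 0.154 (SE, adjusted p 0.0303). Pklr itself, as given above, overlapped between the groups. Mlxipl lost its call in 4 of the 6 fits without 1 library, with adjusted p of 0.0555 to 0.139 in those.

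Of 18 other glycogen genes tested, 2 were called, both lower, against 3.23% of all genes called lower. Ppp1r3b, the subunit that brings protein phosphatase 1 to glycogen and so favours synthase activity in liver, had 6836, 7016 and 7687 normalized counts in rAAV8-Scramble and 3392, 3065 and 4039 in rAAV8-Hnf1aos1. Its log2 difference was −1.04 ± 0.116 (SE, adjusted p 0.00154), or 48.7% of the rAAV8-Scramble level (95% interval 40.9% to 58.1%), and it was called in all 6 fits without 1 library. Ppp1r3g, a second subunit of this kind, was at the edge of detection with 16, 28 and 20 raw counts in rAAV8-Scramble and 3, 4 and 10 in rAAV8-Hnf1aos1, a log2 difference of −2.09 ± 0.473 (SE, adjusted p 0.029). Ppp1r3g lost the call in 4 of the 6 fits without 1 library.

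At the entry of pyruvate into mitochondria, 2 of 11 genes were called, both lower, against 3.23% of all genes called lower. Pdk4, the kinase that switches off pyruvate dehydrogenase in fasting, had 502, 685 and 533 normalized counts in rAAV8-Scramble and 193, 165 and 168 in rAAV8-Hnf1aos1. No rAAV8-Hnf1aos1 library reached 200 where no rAAV8-Scramble library was under 500. The log2 difference was −1.71 ± 0.136 (SE, adjusted p 0.000209), or 30.6% of the rAAV8-Scramble level (95% interval 24.9% to 37.6%), and Pdk4 was called in all 6 fits without 1 library. Dlat, a subunit of the same pyruvate dehydrogenase complex, had 787, 1031 and 966 and 634, 641 and 705 normalized counts, with −0.49 ± 0.110 (SE, adjusted p 0.0281), and lost its call in 4 of those 6 fits.

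Of the glucose carriers besides Slc2a2, 4 were tested and 1 was called, and it was higher, where 3.09% of all genes were called higher. The fructose carrier Slc2a5 had 50.3, 56.0 and 49.5 normalized counts in rAAV8-Scramble and 72.5, 106 and 97.8 in rAAV8-Hnf1aos1, with a log2 difference of 0.83 ± 0.206 (SE, adjusted p 0.039), at a level of 2.18 ± 0.110 and 3.67 ± 0.593 TPM. It lost its call in 4 of the 6 fits without 1 library, and in 5 of the 10 other settings.

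Among the 14 other gluconeogenic genes and the 32 of insulin signalling, 0 were called by edgeR, against 6.32% of all genes. An unadjusted p under 0.05 was found in 2 and 7 of them, against 23.4% of all genes. DESeq2 called 0 and 1 (the phosphatase Ptpn1, named after its value was seen), against 7.11% of all genes. G6pc, which frees glucose at the end of both gluconeogenesis and glycogen breakdown, had 12743, 8855 and 8547 normalized counts in rAAV8-Scramble and 7850.3, 3276 and 7877 in rAAV8-Hnf1aos1. All rAAV8-Hnf1aos1 libraries were below the rAAV8-Scramble libraries, and rAAV8-Hnf1aos1 replicate 2 stood far below the rest; the log2 difference was −0.67 ± 0.396 (SE, adjusted p 0.384) and −0.35 without that library. The coactivator Ppargc1a had −0.34 ± 0.139 (SE, adjusted p 0.165) and the forkhead factor Foxo1, which insulin keeps out of the nucleus, −0.13 ± 0.113 (SE, adjusted p 0.529). Without rAAV8-Hnf1aos1 replicate 1 these were −0.22 and −0.013. For the glucagon receptor Gcgr the log2 difference was −0.11 ± 0.0914 (SE, adjusted p 0.511), and −0.063 without the same library. The insulin receptor gene Insr had 4388, 4778 and 4158 normalized counts in rAAV8-Scramble and 5527, 5184 and 5011 in rAAV8-Hnf1aos1, without overlap, and 0.24 ± 0.0952 (SE, adjusted p 0.158). Irs1, the other main docking protein of liver, had −0.34 ± 0.170 (SE, adjusted p 0.274). It was −0.17 without rAAV8-Hnf1aos1 replicate 1 and was called at −0.51 (adjusted p 0.0398) without rAAV8-Hnf1aos1 replicate 3. For Igfbp1, a FOXO1 target, the value was −0.063 ± 0.379 (SE, adjusted p 0.941).

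Some markers of other cell types moved with the groups. Of 9 Kupffer cell and macrophage markers 3 were called higher by edgeR (Adgre1, Clec4f and Lyz2), against 3.09% of all genes. DESeq2 called 4 higher (Clec4f, Cd5l, Marco and Lyz2), where it called 7.11% of all genes in either direction. All 9 markers were above 0, and their summed level was 214 to 262 TPM in rAAV8-Scramble and 271 to 333 TPM in rAAV8-Hnf1aos1. The 6 skeletal muscle markers, which include the muscle phosphorylase Pygm, were all below 0 with 0 called by edgeR. Of them 2 were called by DESeq2 and 3 had an unadjusted p under 0.05, against 7.11% and 23.4% of all genes. The 6 markers summed to 56.6 to 189 TPM in rAAV8-Scramble and 22.2 to 62.5 TPM in rAAV8-Hnf1aos1. Of the markers of sinusoidal endothelium (7 tested), stellate cells (7), cholangiocytes (4), lymphocytes and neutrophils (4) and adipocytes (2), 0 were called by edgeR and 0 by DESeq2, and 1, in stellate cells, had an unadjusted p under 0.05. The cholangiocyte markers summed to 32.7 to 38.9 TPM in rAAV8-Scramble and 46.8 to 183 TPM in rAAV8-Hnf1aos1. Most of the top value was Spp1 in rAAV8-Hnf1aos1 replicate 1, at 167 TPM against 21.7 to 37.6 TPM in the other 5 libraries. Of the 7 lymphocyte and neutrophil markers, 3 were below the filter: Ly6g had 0 counts in all 6 libraries, S100a8 had 1, 1 and 2 counts in rAAV8-Scramble and 7, 11 and 4 in rAAV8-Hnf1aos1, and S100a9 had 2, 1 and 0 and 12, 9 and 6. The 6 pancreas genes were also below it: Ins1, Ins2 and Prss1 had 0 counts in every library, Cpa1 and Gcg 1 count in a single library, and Cela2a 2, 0 and 1 counts in rAAV8-Scramble and 7, 22 and 7 in rAAV8-Hnf1aos1. The raw S100a8, S100a9 and Cela2a counts were thus higher in each rAAV8-Hnf1aos1 library, as were their normalized counts. They were below the filter of the reported edgeR test, and DESeq2 gave no adjusted p for them. The part of other cells in the values of the 9 genes was not tested.

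**Figure D5:**
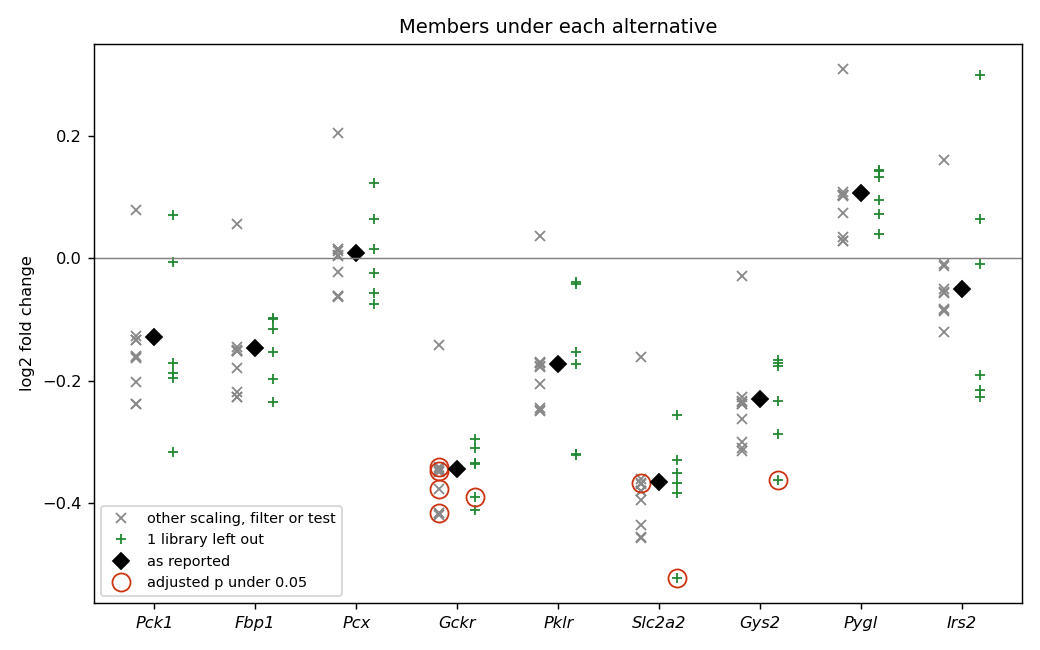
Log2 fold changes of the 9 genes as reported (diamonds), under 10 other scalings, filters or tests (crosses) and with 1 library left out (plus signs), with a red ring where the adjusted p was under 0.05. Rings are seen only for Gckr, Slc2a2 and Gys2; in each gene the highest cross is the scaling by spike-ins.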

How the data were processed

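Liver RNA of 6 mice was sequenced, 3 per group; groups were taken from the sample titles. Per the paper, the authors trimmed reads with Trimmomatic, aligned them with STAR to GRCm38 and counted uniquely mapped exonic reads with featureCounts; the submitters' processing notes name GRCm39 as the build. The deposited raw counts are whole numbers per gene. The TPM values the authors deposited were used for levels and as an alternative; how they were computed is not given in the sources used here. Labels describe depletion of ribosomal RNA, the paper poly(A) selection. The strand setting of the counting and the annotation release are not given in the sources used here. The authors' normalized counts and their table of log2 fold changes and p-values were not used.

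Spike-ins (92 ERCC rows) entered neither library sizes nor tests. In R 4.3.3 with edgeR 4.0.16, counts were scaled by TMM, filtered by filterByExpr (16327 of 40803 genes kept) and tested with robust quasi-likelihood fits (glmQLFit, glmQLFTest) on group alone, with p-values adjusted by Benjamini-Hochberg over all genes. A gene was called at an adjusted p under 0.05. Adjusted p-values in the text are from this test unless DESeq2 is named. Normalized counts were scaled to the mean TMM-adjusted library size. Intervals are 95% from the standard error and the test's degrees of freedom. Replicates are separate mice; no pair within a group agreed within sampling noise (chi-square of counts divided by genes, 7.68 to 31.6, where noise gives about 1). The alternatives were DESeq2 1.42.0, its size factors, library totals, spike-in library sizes, no filter, a minimum mean of 50 counts, a replicate block, voom and log2(TPM + 0.1) or log2(TPM + 1) in limma 3.58.1 for genes with a mean TPM of at least 0.5, and each library left out. The scripts were tested on simulated data.

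The members and lists were chosen with earlier results of these data known. Named were the 9 genes, every called gene of the wider lists, 9 genes set by name (G6pc, Foxo1, Ppargc1a, Insr, Irs1, Mlxipl, Igfbp1, Gcgr and Pdk4), Hnf1aos1, and for each of the 9 without overlap the 3 most alike genes. Marker genes, Ptpn1 and the genes of the closing observations were named after their values were seen. Some genes of the lists are not reported here and were left out of the counts. Positions are GENCODE M21's on GRCm38, matched by symbol.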

Additional observations from a re-analysis of the deposited data

How the results depend on the processing

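The count of 0 higher among the 9 genes was the same in all 10 other settings and all 6 fits without a library. The count of 0 lower became 1 (Gckr) with DESeq2, library totals or a minimum mean of 50 counts, and 2 (Gckr and Slc2a2) with no filter. It ranged from 0 to 3 with 1 library left out, and was 3 (Gckr, Slc2a2, Gys2) without rAAV8-Hnf1aos1 replicate 3. The number called lower over all genes moved too, from 527 as reported to 603 with DESeq2, 729 with library totals and 451 with that minimum mean. It was 1032 with no filter and 866 without rAAV8-Hnf1aos1 replicate 3. Gckr was called at log2 fold changes of −0.342 (DESeq2), −0.417 (library totals), −0.348 (no filter) and −0.377 (minimum mean of 50), and Slc2a2 at −0.367 (no filter). With library sizes from the spike-ins, the median of all genes rose by 0.20 and the signs of Pck1 (0.0788), Fbp1 (0.0558), Pklr (0.0360), Irs2 (0.161), Foxo1 (0.0739), Igfbp1 (0.143) and Gcgr (0.0929) turned; relative to that median, 7 of the 9 stayed below, as in the reported fit. In that scaling Dlat (−0.29) lost the call and Insr (0.44) was called. Pcx turned to −0.0625 (library totals), −0.0223 (minimum mean of 50), −0.0614 (log2(TPM + 0.1)) and −0.0612 (log2(TPM + 1)). The cause was not tested.

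With 1 library left out, log2 fold changes ranged from −0.316 to 0.0715 for Pck1, −0.0743 to 0.124 for Pcx, −0.227 to 0.300 for Irs2, −0.411 to −0.295 for Gckr, −0.522 to −0.256 for Slc2a2, −0.363 to −0.167 for Gys2, −0.235 to −0.0974 for Fbp1, −0.321 to −0.0391 for Pklr, 0.0400 to 0.145 for Pygl and −0.415 to 0.179 for Igfbp1. Of the other pathway genes, 1 was called higher; this was 2 with DESeq2, 3 with no filter, 15 with spike-in sizes, 0 with library totals, the replicate block, voom and both TPM fits, and 0 to 5 with 1 library left out (5 without rAAV8-Hnf1aos1 replicate 3, 0 without rAAV8-Scramble replicate 1 or 3 or rAAV8-Hnf1aos1 replicate 2). The 5 called lower became 2 (Pdk4 and Ppp1r3b) in both TPM fits and 2 to 8 with 1 library left out (8 without rAAV8-Hnf1aos1 replicate 3, and 2 without rAAV8-Scramble replicate 2 or 3 or rAAV8-Hnf1aos1 replicate 2). Over the whole table, 505 genes were called higher: 319 with library totals, 3030.0 with spike-in sizes, 870.0 with no filter, 38 and 66 in the TPM fits, and 38 to 1015 with 1 library left out. The 527 lower became 1032 with no filter, 66 and 124 in the TPM fits, and 65 to 866 with 1 library left out. The maxima of 1015 higher and 866 lower were both without rAAV8-Hnf1aos1 replicate 3.

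Same-numbered libraries of the groups did not deviate together (correlations of deviations from the group means of −0.0226, 0.0231 and 0.00321; 1 of 3 rAAV8-Scramble libraries correlated best with its own number), so the samples share only a number. The fit with the replicate block called 0 of the 9 genes, 5 other pathway genes lower, and 429 higher and 449 lower genes in all. Under it Slc2a5 lost its call (adjusted p = 0.0562) and Hnf1aos1 was called (adjusted p = 0.0138). At these depths all 9 genes had at least 757 counts in a library. Among the called genes of the wider lists and the 9 set by name, only Ppp1r3g had under 30 counts in every library.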

Other observations

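Of the other pathway genes, the 5 with the lowest adjusted p above the threshold were picked after their values were seen. Glycogenin (Gyg), the protein that starts a glycogen chain, had 78.0, 71.3 and 62.7 normalized counts in rAAV8-Scramble and 121, 103 and 96.0 in rAAV8-Hnf1aos1, without overlap, and a log2 difference of 0.59 (adjusted p = 0.0737). The AKT phosphatase Phlpp2 had 0.52 (adjusted p = 0.1) and the translation repressor Eif4ebp1 0.39 (adjusted p = 0.128), both higher without overlap. For the forkhead factor Foxo3 the value was −0.33 (adjusted p = 0.121) and for the pyruvate dehydrogenase phosphatase Pdp1, which opposes Pdk4, 0.77 (adjusted p = 0.15), both with overlap. None of these 5 was called by edgeR or DESeq2.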
